A study of Mus musculus with 80 samples.

Results

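METTL3, the enzyme that writes m6A on RNA, was tagged at either end of the protein in mouse embryonic stem (mES) cells, and the untreated chromatin-associated RNA of these clones was compared. The comparison held 4 of the 80 libraries of the series: N-terminal clones G4 and H1 (FKBP12 F36V joined to the start of METTL3) and C-terminal clones C3 and H5 (FKBP12 F36V joined to its end). Clones were assigned from the names in the labels, and no measured value entered the choice. All 4 clones derive from iXist-ChrX Cast cells (clone C7H8), an XX line of Cast x 129S background, in which a TetOn promoter replaced the Xist promoter on the Cast X chromosome, and they were grown on inactivated mouse fibroblast feeders. The untreated libraries received neither agent. The Dox libraries received 1 µg/mL doxycycline for 24 h to induce Xist. The dTAG libraries received dTAG-13, which depletes the tagged METTL3, for 26 h by their titles, and the dTAG + Dox libraries received dTAG for 2 h and then both agents for 24 h.

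The series asks how m6A and nuclear RNA decay act on Xist and on the silencing of the X chromosome, and it depletes METTL3, YTHDC1, ZCCHC8 or ZFC3H1 with degrons. METTL3 pairs with METTL14 and adds a methyl group to adenosines of nascent RNA, and in mES cells the mark shortens the life of many transcripts of pluripotency and developmental genes. A degron tag is meant to leave its protein in place until the drug is added, so the untreated clones show what the lines were like before depletion. Each tag position was represented by 2 clones, the C-terminal lines were described earlier, and the N-terminal lines were derived for this study. Tag position, clone and round of derivation therefore cannot be told apart, and an exact permutation test of 2 clones against 2 cannot give a two-sided p below 0.33.

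The tag positions correspond to both ends of the Mettl3 coding sequence, which are shown because the groups are defined by them. Mettl3 lies on the minus strand of chromosome 14 in GRCm38, its coding sequence of 1743 nt is spread over 11 exons, and the ends lie 10006 bp apart. Both stretches are coding sequence of the first and last coding exon (RefSeq), read 5′ to 3′ on the coding strand, with the start and the stop codon in capitals.
Mettl3 start, chr14:52304958-52304987: ATGtcggacacgtggagctctatccaggcc
Mettl3 stop, chr14:52294982-52295011: ggcatcatctctaaacctaagaatttaTAG

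Mettl3 itself stood at 17.5 and 24.7 CPM (reads of a gene scaled to the total gene reads of its library) in untreated G4 and H1, and at 30.4 and 29.5 CPM in C3 and H5. Both N-terminal clones lay below both C-terminal clones, but the log2 difference of -0.51 (SE 0.26) did not pass the test (limma, adjusted p = 0.98). With Dox the clones overlapped, at 17.3, 35.2, 24.7 and 24.0 CPM in G4, H1, C3 and H5. G4 was the lowest clone in every treatment, at 16.6 to 18.1 CPM, against 24.0 to 38.9 CPM in the other clones. Reads were counted over the whole gene span and not over the tag, and METTL3 protein was not measured here. The paper reported lower protein levels of the N-terminal fusion, which it read as an effect of the tag on translation or stability. Of the 10 genes nearest to Mettl3, the olfactory receptor genes Olfr1513, Olfr1512, Olfr1511 and Olfr1510 were at 0 in all 4 untreated clones. The neighbour Rpgrip1, a ciliary gene of photoreceptors, was at 10.6 and 10.1 CPM in G4 and H1 and at 6.46 and 6.32 CPM in C3 and H5.

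Untreated libraries held 16.9, 22.5, 21.4 and 19.8 M reads (megareads) in G4, H1, C3 and H5, and all 16 METTL3 libraries held 12.6 to 24.3 M. Counting error is therefore small for most genes named here, and it is the only error that depth covers, because reads carried no molecular identifiers. Of 10 markers of pluripotent cells, 9 were at 1 CPM or more in every untreated clone. Of 22 feeder fibroblast markers, 8 to 9 reached 1 CPM, with Col1a1 at 0.0444 to 0.187 CPM and Lum at 0. Their summed level was 1074, 765, 783 and 914 CPM in G4, H1, C3 and H5, of which Fn1, a fibronectin gene, made up 687 to 999 CPM. All pairs of clones differed by more than counting error.

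In untreated cells the clones of both tag positions lay apart in the level of single genes, none of which was called by limma. The genes named here were picked by the smallest unadjusted p in these same 4 libraries, so their separation follows from the choice. Genes that lay lower in both N-terminal clones included Kcnj3, Mthfd2l, Sema6a and Prlr, by 1.35 to 1.93 on the log2 scale. Genes that lay higher included Oas1a, Sall3 and Ahnak, by 1.08 to 1.46. Of 12980 genes tested, limma called 0 at an adjusted p under 0.05, which is a background of 0%. An unadjusted p under 0.05 was reached by 728 genes (5.61%), a share close to that threshold itself. With the same 4 libraries edgeR called 4 genes, all lower in the N-terminal clones, and DESeq2 called 55, of which 15 were higher and 40 lower. Without H5 limma called 84 genes. Log2 differences are N-terminal minus C-terminal on log2(CPM + 1), which understates changes of genes at low level, and the median over all genes was -0.03. The p values describe the spread between these clones only.

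Kcnj3, a subunit of a G protein-gated potassium channel, was at 35.3 and 50.2 CPM in G4 and H1 and at 152 and 158 CPM in C3 and H5. Both N-terminal clones lay far below both C-terminal clones, with a log2 difference of -1.86 (SE 0.22, limma adjusted p = 0.22). Mthfd2l, a mitochondrial enzyme of folate metabolism, showed the same separation at 7.45 and 8.22 against 35.4 and 30.2 CPM. Sema6a, a transmembrane semaphorin, was at 23.9 and 18.0 CPM in G4 and H1 and at 82.7 and 63.5 CPM in C3 and H5. Prlr, the prolactin receptor, was at 64.7 and 59.1 against 195 and 131 CPM. Cyp7b1 (oxysterol hydroxylase), Enpp3 and Enpp2 (ectonucleotide pyrophosphatases, the latter known as autotaxin) were also lower in both N-terminal clones, by 1.04, 1.09 and 1.66 on the log2 scale.

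In the other direction, Ahnak, which encodes a very large scaffold protein, was at 738 and 1134 CPM in G4 and H1 and at 397 and 468 CPM in C3 and H5. Oas1a, an interferon-induced oligoadenylate synthetase, was at 167 and 211 against 44.9 and 101.5 CPM, and Sall3, a zinc finger factor, at 17.2 and 18.2 against 4.96 and 8.495 CPM. Cth, which makes cysteine from cystathionine, was at 112 and 102 against 49.2 and 53.6 CPM. Fabp3, a fatty acid binding protein, was at 74.4 and 72.3 against 24.99 and 36.2 CPM. The tag groups overlapped in none of these genes, which follows from picking them by the smallest p in these libraries. None passed the adjusted threshold in limma. Across the genome both N-terminal clones lay above both C-terminal clones in 1777 of 13367 genes (13.3%) and below them in 2578 (19.3%), against 6252 (46.8%) above and 3387 (25.3%) below with Dox. After each library was centred within 20 bins of GC content, an alternative chosen after seeing the data, the counts were 2783 above and 2919 below untreated, and 3608 above and 4047 below with Dox.

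Groups of genes tied to METTL3 held no call in untreated cells, as did all other genes in limma. The median difference was 0.05 over 9 tested genes of the m6A writer complex and 0.07 over 11 erasers and readers. It was 0.32 over 18 naive pluripotency genes, -0.12 over 37 imprinted genes and -0.04 over 11 genes of the DNA methylation machinery. Mettl14, the partner of METTL3, was at 34.0 and 43.4 CPM in G4 and H1 and at 37.3 and 38.8 CPM in C3 and H5, so H1 and G4 lay on either side of the C-terminal clones. The 100 genes that rose most with dTAG in GFP-METTL3 D395A cells, a line made from H5 whose libraries are not part of the comparison, had a median difference of -0.15 over the 99 tested. The 100 that fell most had a median of -0.08, beside -0.03 over all genes. Kcnj3 was among these 100, of which 12 lay lower in both N-terminal clones in all 4 treatments (5.72% of all genes did) and 0 higher (2.04%). The D395A line derives from a C-terminal clone, so the list is not independent of the tag groups. Its median GC content was 42.9%, below the 45.5% of all genes, and no such count after GC centring is given.

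In untreated cells the closest pair of clones carried different tags. The pair G4 and H1, of the same tag, had 5.29% of genes over 2-fold apart, and C3 and H5 had 1.72%. Pairs of different tags ranged from 0.547% for G4 and H5 to 6.81% for H1 and C3. With Dox the pairs split by tag, with 1.41% and 1.77% for the pairs of the same tag and 17.2% to 25.3% for the pairs of different tags.

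**Figure D1:**
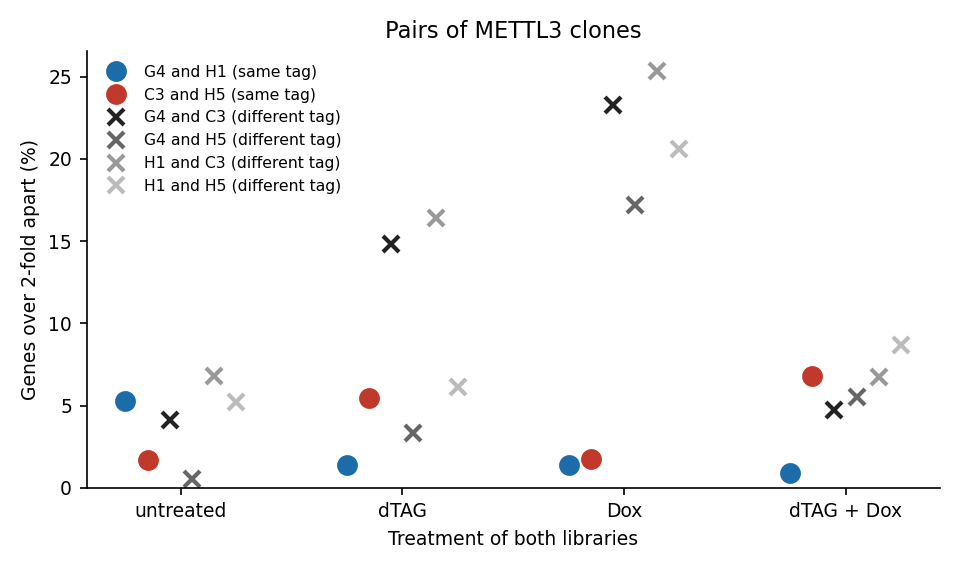
Share of genes (%) that differed more than 2-fold between both clones of a pair, for each treatment; circles are pairs of the same tag and crosses pairs of different tags. Untreated pairs of both kinds overlap (0.547% to 6.81%), whereas with Dox the different-tag pairs (17.2% to 25.3%) lie far above the same-tag pairs (1.41% and 1.77%).

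The same clones were then compared in their Dox libraries, to ask which differences recurred. Plec, which encodes the cytoskeletal linker plectin, Lama5, a laminin chain, and Ints1, an Integrator subunit, were 3.84 to 4.91 higher on the log2 scale in the N-terminal clones, although they differed by 0.28 to 0.55 untreated. Of 13009 genes, limma called 5041 (38.8%), 3878 higher (29.8%) and 1163 lower (8.94%) in the N-terminal clones. With median-ratio scaling, which moved the median difference over all genes from 0.19 to -0.04, the split was 2891 higher and 2583 lower. The difference between the Dox and the untreated comparison was itself called for 4898 genes (37.7%), 3869 with a positive change (29.7%) and 1029 with a negative one (7.91%). Under median-ratio scaling this split was 2769 and 2745, and without the clone as a block 939 genes were called. Without H1 the Dox count was 3127, and the count of changes was 9312 without G4, 2005 without C3 and 1916 without H5.

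Most genes that stood out untreated kept their direction with Dox. The 20 named genes with the smallest p untreated held 10 in each direction. Of these 20, 17 had the same sign with Dox, beside 6523 of all 12769 genes tested in both comparisons. With Dox 14 of the 20 were called, against 38.8% of all genes called in either direction. These 14 were also the genes in which the clones of both tags did not overlap in any of the 4 treatments, 9 of them lower and 5 higher in the N-terminal clones. Over all genes 5.72% were lower and 2.04% higher in this way. The untreated separation of the 20 follows from picking them by p, and the other libraries came from the same clones. Kcnj3 stood at 35.97 and 35.0 CPM in G4 and H1 with Dox and at 169 and 159 CPM in C3 and H5 (log2 difference -2.18, SE 0.15, limma adjusted p = 0.0011). Mthfd2l was at 7.74 and 5.88 against 30.6 and 26.3 CPM, and Ahnak at 967 and 1063 against 359 and 374 CPM. In these genes both N-terminal clones again lay on the same side of both C-terminal clones.

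Other genes lost their separation. Cth was at 84.5 and 61.3 CPM in G4 and H1 with Dox and at 69.1 and 75.8 CPM in C3 and H5, so the groups overlapped, and the log2 difference fell from 1.04 to -0.01. The change of this difference was called (limma interaction, -1.05, adjusted p = 0.0125). Fabp3 was at 20.2 and 22.3 CPM in G4 and H1 with Dox and at 13.6 and 20.1 CPM in C3 and H5. Both N-terminal clones were thus still above, G4 only just, but the difference of 0.34 was not called (limma, adjusted p = 0.28), and its change from 1.26 untreated was (limma interaction, -0.92, adjusted p = 0.0143). After GC centring the Dox difference of Fabp3 was -0.83, which was not called (limma, adjusted p = 0.058). Sat1, an enzyme of polyamine turnover, and Btg1, an antiproliferative factor, had differences of 1.19 and 1.06 untreated and of -0.43 and -0.63 with Dox, and neither Dox difference was called (limma, adjusted p = 0.24 and 0.061).

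**Figure D2:**
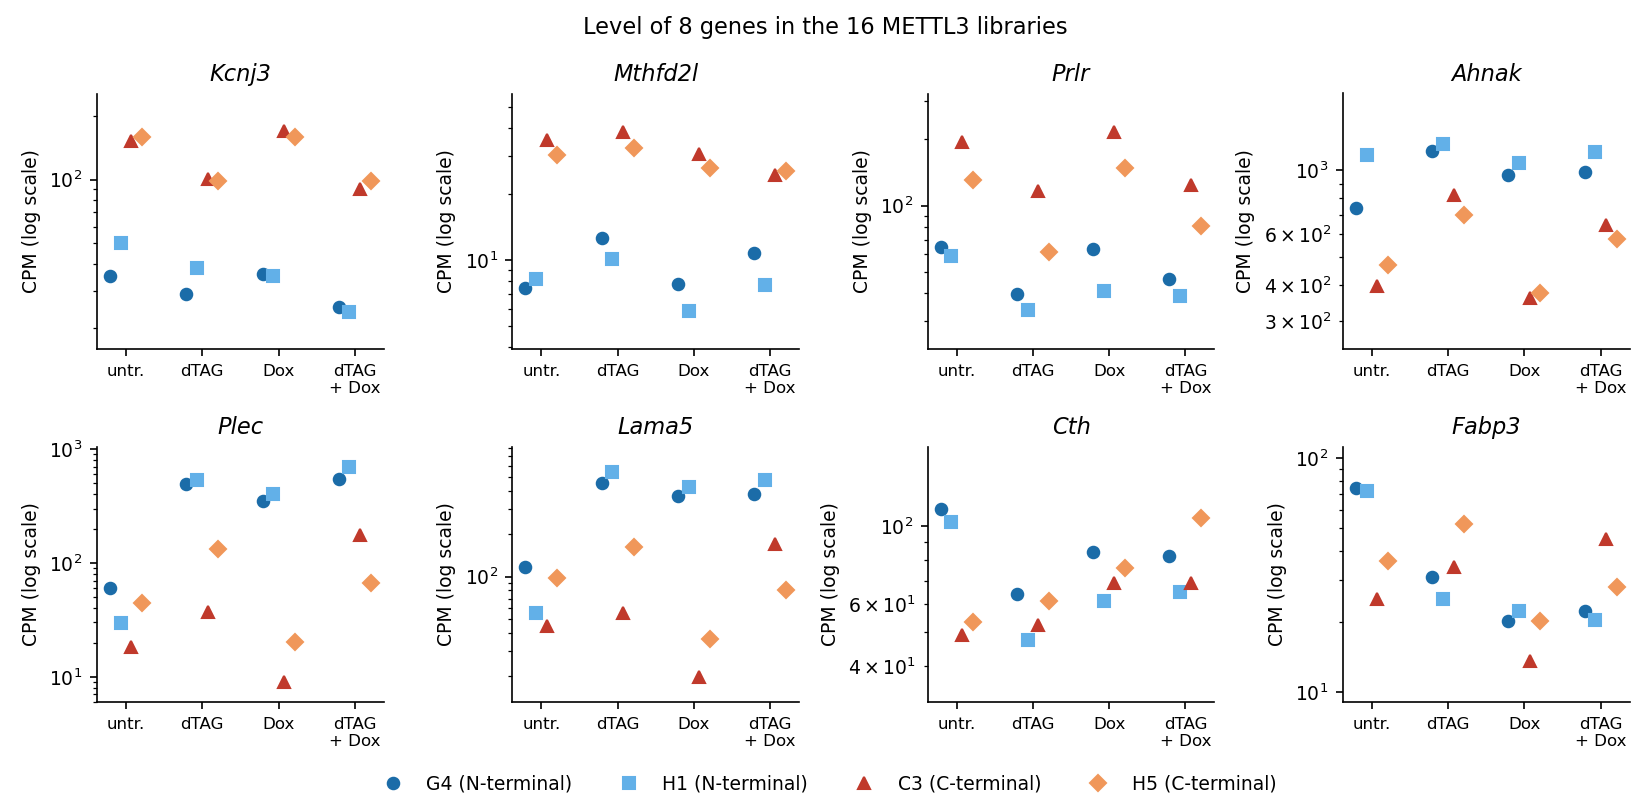
Level of 8 genes in CPM (log axis) in each of the 16 METTL3 libraries by treatment, with blue symbols for the N-terminal and red or orange symbols for the C-terminal clones. Kcnj3, Mthfd2l, Prlr and Ahnak keep both tags apart in all 4 treatments, Plec and Lama5 separate only in libraries with an agent, Cth is apart untreated but overlaps with Dox, and in Fabp3 with Dox the lower N-terminal clone lies only just above the higher C-terminal clone.

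Over all genes, those with a low untreated p were called with Dox at a share near the background. Of 701 genes with an unadjusted p under 0.05 untreated that were also tested with Dox, 520 had the same sign. Over all 12769 genes tested in both comparisons 6523 had the same sign, and 7804 after GC centring. Of the 701, 241 (34.4%) were called with Dox in either direction, beside 38.8% of all genes. Of these 241, 213 had the same sign in both comparisons. Both N-terminal clones lay above both C-terminal clones without and with Dox in 748 of 13367 genes (5.6%) and below in 1068 (7.99%). In all 4 treatments this held for 273 genes (2.04%) above and 765 (5.72%) below. After GC centring it held without and with Dox for 1105 above and 1454 below, and in all 4 treatments for 671 above and 779 below. These libraries come from the same 4 clones, so they repeat the measurement and add no independent clone. Across 12769 genes the untreated and the Dox differences had a Pearson correlation of 0.20 and a Spearman correlation of 0.14, as a description only.

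Among genes apart in all 4 treatments, 10 higher and 37 lower in the N-terminal clones kept a gap of more than 0.5 on the log2 scale between the nearest clones of both tags. A gap of more than 1 was kept by 6 genes, all lower in the N-terminal clones, and this cutoff was chosen after the values were seen. These 6 were Kcnj3, Rspo3, Mir467e, Mthfd2l, Slc15a2 and Crispld1. Rspo3, a secreted amplifier of Wnt signalling, was at 5.80 and 4.93 CPM in untreated G4 and H1 and at 16.4 and 16.8 CPM in C3 and H5, and with Dox at 5.02 and 2.54 against 20.3 and 21.1 CPM. Slc15a2, a peptide transporter, was at 3.90 and 3.999 against 11.1 and 9.36 CPM untreated and at 2.56 and 3.04 against 15.5 and 13.1 CPM with Dox. Slc40a1, the iron exporter ferroportin, and Itgb8, an integrin chain, were likewise lower in both N-terminal clones, with untreated differences of -1.11 and -1.20. No gene was at 5 CPM or more in both clones of one tag and under 0.5 CPM in both of the other in all 4 treatments.

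Library composition differed between the untreated and the Dox comparison. Reads in genes under 3 kb made up 2.53%, 1.02%, 0.797% and 1.78% of untreated G4, H1, C3 and H5. The tags overlapped, with a mean of 1.78% ± 1.07 (SD, n = 2) for the N-terminal and 1.29% ± 0.70 (SD, n = 2) for the C-terminal clones (exact permutation test, two-sided, p = 0.667). With Dox the shares were 2.95%, 2.44%, 0.497% and 1.21%, and both N-terminal clones lay above both C-terminal clones, by 1.84 percentage points (exact permutation test, p = 0.33, the smallest this design allows). With dTAG + Dox the order changed again, to 2.07%, 1.73%, 4.57% and 1.04%, with C3 on top.

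The short-gene share moved with the GC content of the genes that were read. GC tilt, the median of the quintile of genes with the highest GC content minus that of the lowest quintile against the mean of the 16 libraries, was 0.02, -0.82, -0.55 and -0.17 (log2) in untreated G4, H1, C3 and H5. With Dox it was 0.61, 0.70, -1.12 and -0.83, so both N-terminal libraries were rich in reads of GC-rich genes and both C-terminal libraries poor in them. Over the 16 libraries, which are repeated measures of 4 clones, tilt and the log2 short-gene share had a Pearson correlation of 0.83 and a Spearman correlation of 0.72.

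**Figure D3:**
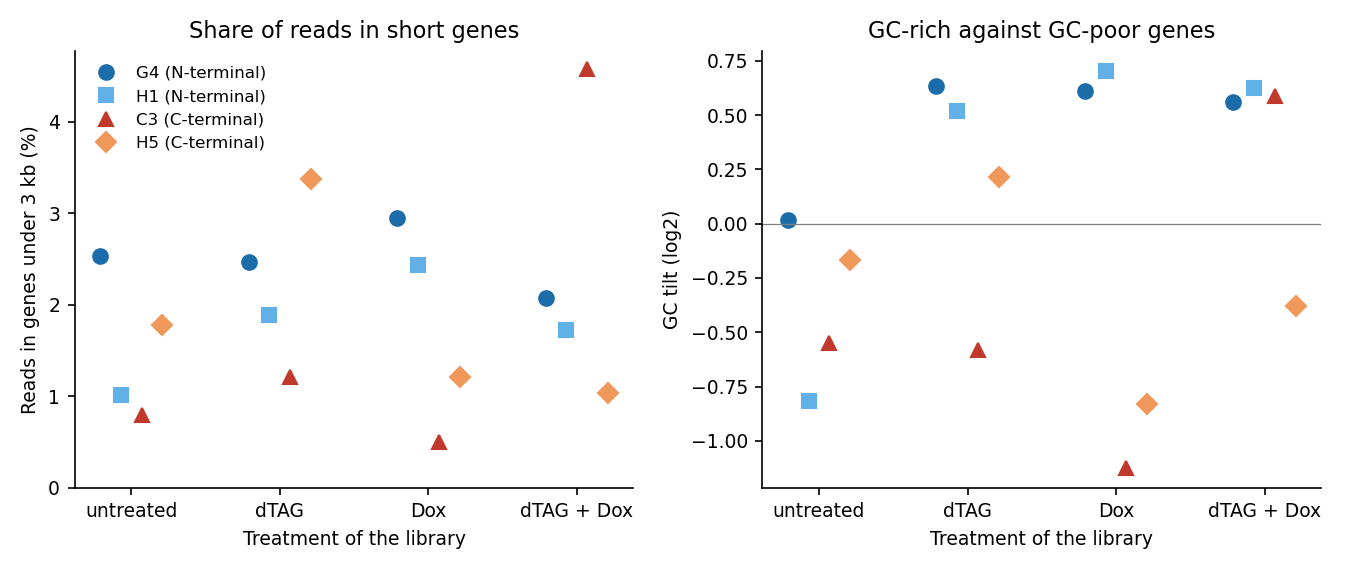
Share of reads in genes under 3 kb (%, left) and GC tilt (log2, right) of the 16 METTL3 libraries by treatment, 1 symbol per clone. Untreated clones of both tags are interspersed in both panels, while with Dox G4 and H1 (2.95% and 2.44%, tilt 0.61 and 0.70) lie above C3 and H5 (0.497% and 1.21%, tilt -1.12 and -0.83).

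The gene differences of the Dox comparison followed GC content closely. From the lowest to the highest quintile of genes by GC content, the median Dox difference was -0.42, -0.13, 0.19, 0.67 and 1.24 on the log2 scale. In the lowest quintile 7 genes were called higher and 896 lower in the N-terminal clones, and in the highest 2076 higher and 2 lower. In untreated cells the medians of the quintiles stayed between -0.09 and 0.03. Across genes, the Spearman correlation of the difference with GC content was 0.82 with Dox, -0.07 untreated and 0.60 for the means of each clone over its 4 libraries. Plec, at 59.3% GC, was at 346 and 405 CPM in G4 and H1 with Dox and at 8.96 and 20.2 CPM in C3 and H5, but untreated at 59.9 and 29.5 against 18.2 and 44.1 CPM, where the clones overlapped. Rpph1, the short RNA of RNase P, at 66.9% GC, went from 281, 55.4, 41.9 and 247 CPM in untreated G4, H1, C3 and H5 to 1303, 863, 21.5 and 58.4 CPM with Dox. With dTAG + Dox C3 had the highest Rpph1 level of the 4 clones, at 3544 CPM.

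**Figure D4:**
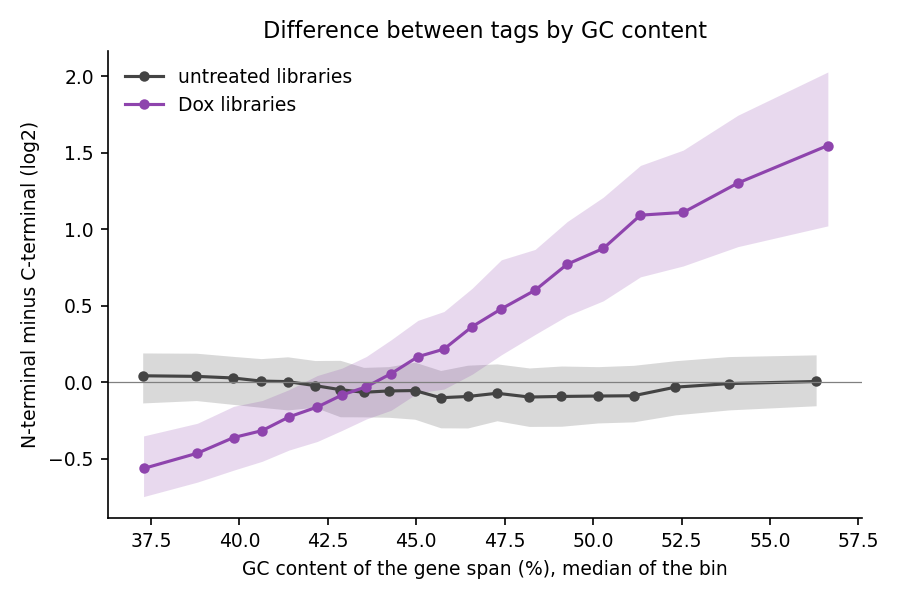
Median log2 difference, N-terminal minus C-terminal, in 20 equal bins of genes by GC content of the gene span (%), with bands from the lower to the upper quartile of genes, for untreated (grey) and Dox (purple) libraries. The untreated line stays near 0 in every bin, and the Dox line rises with GC content, with quintile medians from -0.42 to 1.24.

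Length followed less closely once GC content was held. Genes under 1 kb had a median Dox difference of 1.20 (70 genes), genes of 1 to 3 kb 0.56, and genes of 100 kb or more -0.16. Within the middle quintile by GC content the order turned, with -0.19 for genes under 3 kb (42 genes) and 0.21 for genes of 100 kb or more. Among genes of 10 to 100 kb the GC gradient remained, from -0.40 in the lowest to 1.36 in the highest quintile. Without genes under 3 kb limma still called 4779 genes with Dox, against 5041 with them. A fit over all 16 libraries called 5087, and 1638 with a covariate for the short-gene share. Untreated, the Spearman correlation of the difference with length was -0.18, and -0.20 after GC centring. The untreated median was -0.06 for genes under 1 kb (57 genes), 0.07 for 1 to 3 kb and -0.10 for 100 kb or more.

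When each library was centred within 20 bins of GC content, the Dox comparison called 227 genes (1.74%), 125 higher and 102 lower. The untreated comparison then called 1 gene (0.0077%), Kcnj3, with a difference of -1.88 (limma, adjusted p = 0.0204). The change between both comparisons was called for 1905 genes (14.6%) after this centring. Of the 20 named untreated genes, 6 were called with Dox after centring: Kcnj3, Mthfd2l, Sema6a, Prlr, Enpp3 and Ahnak. The centred difference of Kcnj3 with Dox was -1.55 and that of Ahnak 1.09, close to their untreated differences. Plec was still 3.17 higher and Lama5 2.31 higher with Dox after centring, and both were called (limma, adjusted p = 0.0154 and 0.0161). After centring, the Pearson correlation of the untreated with the Dox differences across genes was 0.36.

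Functional groups with Dox are therefore given with and without GC centring. The DNA methylation machinery had 9 of 11 genes called higher in the N-terminal clones (29.8% of all genes were) and 0 lower, with a median of 1.28 that became 0.34 after centring, when 2 were called. Dnmt1, the maintenance methyltransferase, was at 234 and 284 CPM in G4 and H1 with Dox and at 66.5 and 83.7 CPM in C3 and H5, while untreated the clones overlapped at 159, 87.8, 115 and 146 CPM. Replication histone genes had 15 of 20 called higher, with a median of 1.44 that became 0.04. Naive pluripotency genes had 7 of 19 called higher and 0 lower, with a median of 0.38 that became -0.20. Klf4, a naive pluripotency factor, stood at 41.6 and 45.1 against 16.3 and 21.7 CPM with Dox, and its difference of 1.16 became -0.01 after centring.

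Of 14 p53 targets 8 were called higher with Dox and 0 lower, and of 8 heat shock genes 5 and 0. Their medians of 0.67 and 0.59 became 0.28 and 0.11 after centring, when limma called 0 genes of either list. The integrated stress response had 4 of 15 called higher and 0 lower, and imprinted genes 11 of 38 higher and 5 lower, shares near those over all genes (29.8% higher and 8.94% lower). Their medians of 0.16 and 0.09 became -0.37 and -0.13, with 1 and 0 genes called. In the m6A writer complex Rbm15b was called higher (1.55), and Mettl14 (-0.49) and Wtap (-0.52), subunits that bind METTL3 or anchor it, were called lower of 9 genes (limma, adjusted p = 0.009, 0.0497 and 0.0417). After centring their limma adjusted p values were 0.97, 0.53 and 0.52. Among readers and erasers Igf2bp1 was called higher (1.20), and Hnrnpa2b1 (-0.63) and Ythdf3 (-0.55) lower, with limma adjusted p values of 0.094, 0.4 and 0.77 after centring. The genes that rose most with dTAG in D395A cells had 18 of 98 called higher and 9 lower (median -0.08), and those that fell most had 12 of 100 higher and 23 lower (median -0.26), beside a median of 0.19 over all genes. After centring these medians were -0.03 and -0.10, with 3 and 2 genes called, beside -0.02 over all genes. Both of these lists had a lower median GC content, 42.1% and 42.9%, than all genes at 45.5%.

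Feeder markers stood beside these differences. Their summed level with Dox was 1278 and 891 CPM in G4 and H1 and 705 and 753 CPM in C3 and H5, with 8 to 9 of 22 at 1 CPM or more and Col1a1 at 0.0469 to 0.564 CPM. Fn1 alone made up 1178, 777, 644 and 703 CPM of these sums in G4, H1, C3 and H5. Of the 8 tested 3 were called higher (29.8% of all genes were) and 0 lower. These were the fibrillin gene Fbn1, the collagen gene Col5a1 and Vim, by 0.82, 1.88 and 0.87. After centring their differences were 0.84, 0.73 and 0.90, with limma adjusted p values of 0.062, 0.07 and 0.073. The collagen gene Col5a2 went the other way, at 5.74 and 4.83 CPM in G4 and H1 against 9.43 and 5.93 CPM in C3 and H5. The median of the 8 was 0.59 before and 0.63 after centring. The part of feeder RNA in the other differences was not tested. In bulk RNA a smaller share of cells of a type and less RNA per cell cannot be told apart.

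Means of each clone over its 4 treatments still carried a GC gradient between the tags. The Spearman correlation of the difference with GC content was 0.60 in the means, against 0.82 with Dox and -0.07 untreated. In these means limma called 1805 of 13367 genes (13.5%), 1214 higher (9.08%) and 591 lower (4.42%), and after GC centring 0 (0%), with 3641 at an unadjusted p under 0.05. Without G4, H1 or C3 limma called 0 genes (3019 to 3745 at an unadjusted p under 0.05), without H5 482, and with no filter on low values 0 (5439 at an unadjusted p under 0.05). Kcnj3, Slc15a2 and Rspo3 had the largest negative differences that were called, at -1.87, -1.86 and -1.75 (limma, adjusted p = 0.0272 for each). Ints1 and Plec had the largest positive ones, at 2.68 and 2.64, and Plec was not apart in the untreated clones. Of the 20 genes with the largest called differences in the means, 11 were apart in all 4 treatments. Over all genes 2.04% were apart with the N-terminal clones above and 5.72% with them below. The 20 were picked on the means of these same libraries, so the count is no independent check. Of 16 primed and lineage genes, 1 was called higher and 1 lower in the means, with a median of -0.04. The lower one was Fgf5, a marker of primed epiblast (difference of the means -1.14, limma, adjusted p = 0.0307). It was lower in both N-terminal clones in every treatment, at 11.0 and 13.3 against 17.5 and 23.1 CPM untreated. With Dox 4 of the 14 tested genes of this list were called higher and 1 lower (29.8% and 8.94% of all genes were). Fgf5 therefore does not stand for the list.

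Differences between clones also ran along chromosomes. In the distal part of chromosome 8, from 80 Mb to its end, a boundary set after the values were seen, the median of 360 genes after GC centring was -0.09 and -0.31 in untreated G4 and H1 and 0.21 and 0.16 in C3 and H5, against the mean of the clones. Both N-terminal clones lay below both C-terminal clones, and this recurred in every treatment, with differences of -0.39, -0.35, -0.34 and -0.37 for untreated, dTAG, Dox and dTAG + Dox. On the rest of chromosome 8 (342 genes) the difference was 0.05 to 0.12. Of 224 windows of 10 Mb with at least 20 genes, 16 (7.14%) kept the tags apart in all 4 treatments, and 5 of them were the windows from 80 to 130 Mb of chromosome 8. Cntnap4, a neuronal cell adhesion gene on distal chromosome 8 (112570042 to 112882707), was at 19.2 and 15.6 against 38.7 and 48.2 CPM untreated.

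Chromosome 5 set a single clone apart. Its 887 genes had a median of -0.29 in untreated C3 and of 0.07, 0.11 and 0.13 in G4, H1 and H5. C3 was the lowest clone in every treatment, by 0.39 to 0.51 against the other clones, and in all 12 windows of the chromosome. The fold between tags on chromosome 5 therefore mixes clones that differ from each other. Zfp951, a zinc finger gene on chromosome 5, was at 193, 165, 20.4 and 205 CPM in untreated G4, H1, C3 and H5, and Txlnb on chromosome 10 at 51.1, 78.3, 11.9 and 64.5 CPM. These were the only 2 genes in which 1 clone was over 4-fold from each of the others in all 4 treatments. H1 alone stood apart on chromosome 14, in windows picked after the values were seen. Its GC-centred median differed from the median of the other clones by -0.84 over 21 genes from 120 to 130 Mb and by 0.36 over 58 genes from 70 to 80 Mb, both as means over the treatments. Copy number was not analysed here, and its part in the chromosome 5, 8 and 14 values was not tested.

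**Figure D5:**
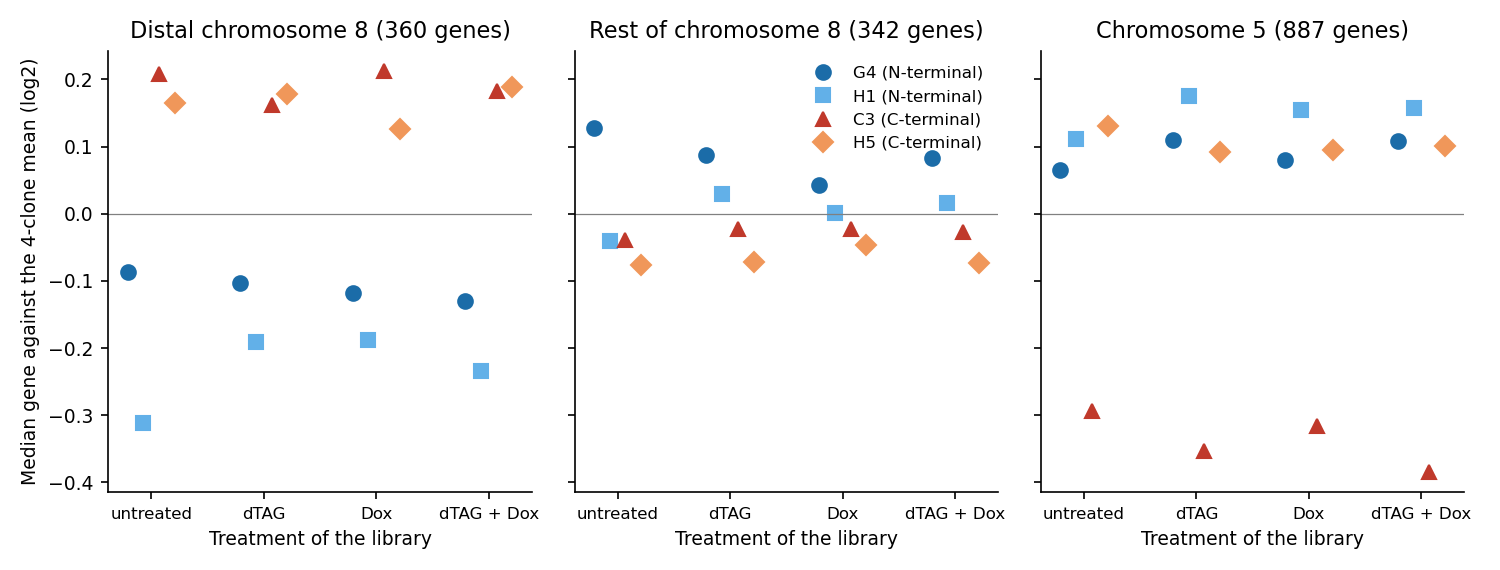
Median GC-centred log2 level of the genes of distal chromosome 8 (360 genes), the rest of chromosome 8 (342 genes) and chromosome 5 (887 genes) in each clone against the 4-clone mean, by treatment. On distal chromosome 8 G4 and H1 lie below C3 and H5 in every treatment, and on chromosome 5 C3 alone lies low (-0.29 to -0.38).

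On the X chromosome the clones were close before Xist induction. The median allelic ratio, the fraction of allele-specific reads that came from the Cast X, was 0.453 and 0.451 in untreated G4 and H1 and 0.461 in both C3 and H5, over the 396 genes of the ratio data with Xist left out (exact permutation test, p = 0.33). With Dox it was 0.273, 0.245, 0.230 and 0.271, and the tags overlapped (exact permutation test, p = 0.667). Gene by gene limma called 0 ratios (0%) untreated, with 41 at an unadjusted p under 0.05, and 0 (0%) with Dox, with 34. The read depth behind these ratios is unknown here. X-linked genes without Xist took 5.93% and 6.19% of reads in untreated G4 and H1 and 6.80% and 6.22% in C3 and H5, and the N-terminal share was the lower one in all 4 treatments.

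Xist, the RNA that coats and silences the X, was described although the rule for named genes did not pick it. It was at 212 and 325 CPM in untreated G4 and H1 and at 118 and 203 CPM in C3 and H5, and with Dox at 2039 and 2132 against 4189 and 2906 CPM. The N-terminal clones were thus higher without Dox and lower with it, and the change of the difference was called (limma interaction, -1.50, adjusted p = 0.0289). After GC centring the Dox difference was -0.54 and was not called (limma, adjusted p = 0.17). Next to Xist on the X chromosome (mm10, 103460372 to 103483233), the noncoding RNA genes Jpx (103493575 to 103506425) and Ftx (103560909 to 103623754) were lower in both N-terminal clones in all 4 treatments. Untreated Ftx was at 116 and 126 against 214 and 185 CPM. With Dox Ftx stood at 85.3 and 107 against 141 and 145 CPM, a difference that was called (-0.57, limma, adjusted p = 0.0269). Over 495 X-linked genes the median Dox difference was -0.25, and -0.11 after GC centring. The Ftx call and the Xist interaction are given before GC centring only, and the part of the GC tilt in them is not shown.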

How the data were processed

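Chromatin-associated RNA libraries (TruSeq stranded total RNA, paired-end) were processed by the authors, who removed rRNA reads, aligned the rest to an N-masked mm10 genome with STAR, and counted strand-specific reads over whole gene spans with featureCounts, so intronic reads are included. Bowtie2, SAMtools, bedtools, deepTools and edgeR also appear in the submitters' processing notes, without versions. The deposited expression values are CPM for 22556 genes, with both alleles together. The deposited allelic ratio is a fraction, Xi/(Xi + Xa), per X-linked gene. In all 16 libraries 100% of CPM values were whole multiples of a single step (tolerance 0.1 reads), and the reads recovered this way were used for edgeR and DESeq2. In the tables used, 8 columns matched no sample of the series and were left out (24 over all tables). Replicate numbers within a tag were given in accession order and pair no clones across tags.

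Log2(CPM + 1) was tested with limma 3.58.1 (R 4.3.3, eBayes with trend) for genes averaging 1 CPM or more in the fit, two-sided, with Benjamini-Hochberg adjustment and calls at an adjusted p under 0.05. Each clone entered once, and the change with Dox was tested as an interaction with clone as a replicate block, because both libraries are the same line by their titles. Alternatives used edgeR 4.0.16, DESeq2 1.42.0, other scaling, filter and pseudocount (0.1 CPM), genes under 3 kb removed (deposited length), all 16 libraries, and each clone left out. GC centring, added after seeing the data, subtracted from each log2 value the autosomal median of its GC bin (20 bins, RefSeq genome GRCm38). The limma fit of 2 groups, with and without GC centring, and the interaction fit were tested on simulated data, and the other fits were not. Tables and figures used Python 3.11.15, pandas 2.3.3 and scipy 1.17.1.

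Named genes were Mettl3 and its 10 nearest genes, up to 10 genes in each direction per comparison with the largest called difference or, where too few were called, the smallest p, genes restricted to a tag, genes over 4-fold apart in a single clone, and the members of each list with the largest differences. The members and lists were chosen with earlier results of these data known. The genes with a gap above 0.5 or 1 in all treatments, and the 80 Mb boundary, were chosen after their values were seen.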

Additional observations from a re-analysis of the deposited data

Results flagged for a closer look

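The change with Dox differed between the N-terminal and the C-terminal clones for 4898 genes (limma interaction with clone as a block), which is a difference between groups under the same treatment. The same fit after GC centring called 1905 genes, 1055 with a positive and 850 with a negative change. The GC tilt of the Dox libraries, 0.61 and 0.70 in G4 and H1 against -1.12 and -0.83 in C3 and H5, moved with this result, and its part in single genes was not tested.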

How the results depend on the processing

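The untreated comparison called 0 genes by limma and 17 with median-ratio scaling, 1 after GC centring, 4 by edgeR, 55 by DESeq2, and over all 16 libraries 3, with clone as a random block 13 and with a covariate for the short-gene share 7, while leaving out each clone in turn gave 0 to 84, the highest without H5. The Dox comparison called 5041 genes, 227 after GC centring and 1638 with the short-gene covariate, and 3127 to 4264 without each clone, the lowest without H1. The clone means called 1805 genes, 0 with no filter on low values and 0 after GC centring, and 0 to 482 without each clone. The change with Dox was called for 4898 genes with clone as a replicate block and for 939 with no replicate block, for 2917 with no filter, for 1905 after GC centring, and for 1916 to 9312 without each clone, where 1 residual degree of freedom remained (2005 without C3, 1916 without H5, 9312 without G4). With a clone left out the remaining clone of that tag was assumed to vary like the others. The Dox allelic ratio difference of 0.00887 turned to -0.00518 without G4 and -0.0115 without C3 (up to 0.0292 without H5), and the untreated short-gene difference of 0.485 percentage points to -0.272 without G4 and -0.00881 without C3 (up to 1.24 without H1). In the clone means, a few list genes changed sign: Ythdf3 to 0.00346 and Bbc3 to -0.0196 after GC centring, Arg2 between -0.284 and 0.0123 and Perp between -0.857 and 0.0398 over the clones left out (positive without H5 and G4), and Terc to -0.665 by edgeR, -0.157 after GC centring, and between -0.223 and 0.892 over the clones left out (-0.199 without C3). The cause of these changes was not tested. All pairs of clones differed by more than counting error, so the number of clones, 2 per tag, limits these comparisons more than depth.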
